A study of Mus musculus with 42 samples.

Results

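Genes used as readouts of the actin cytoskeleton, whose state was not measured, were followed as RNA during the differentiation of mouse embryonic stem cells. They are Ccn1, Ccn2, Amotl2, Ankrd1, Tagln, Tagln2, Acta2, Cnn1, Cnn2 and Vcl, taken by name as a list chosen with earlier results of these data known. All 10 were present among the 14296 genes with a deposited value. The cells were W9.5, 1 embryonic stem cell line of the 129X1/SvJ strain background, and no sample carried an engineered allele or a drug. Differentiation into embryoid bodies, which are floating aggregates of stem cells, was induced by withdrawal of the cytokine LIF in every sample, and 0 h is the sample at induction. Poly-A RNA was sequenced every 6 h from 0 h to 120 h in biological duplicate, which gave 42 libraries at 21 time points, each time point with a replicate A and a replicate B. Between 10120972 and 51652434 reads were assigned to genes per library (median 29692082), so that 3 reads corresponded to 0.0571 to 0.316 CPM (read counts scaled to a common library size). Levels are given as log2 CPM, where 1 unit is a factor of 2, and as mean ± SD over n = 2 unless the replicates are given one by one. At 0 h the 5 listed stem cell markers (Pou5f1, Nanog, Sox2, Zfp42 and Esrrb) together stood at 3067 CPM in replicate A and 3318 CPM in replicate B, and at 120 h they still stood at 1519 and 1472 CPM. Whole cultures were sequenced, so a change in the share of cells that express a gene and a change in the RNA per cell cannot be told apart.

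A pair of signalling routes links actin to transcription. In the Hippo pathway, the kinases Lats1 and Lats2 hold the coactivators Yap1 and Wwtr1 (also called TAZ) in the cytoplasm, and when a cell spreads or is under tension these enter the nucleus and act through the Tead factors. In the other route, free actin monomers hold back the cofactors Mrtfa and Mrtfb, and when actin polymerises they join serum response factor (Srf) on CArG boxes in the promoters of actin and actin-binding genes. Ccn1, Ccn2, Amotl2 and Ankrd1 are among the usual readouts of the first route, and Acta2, Tagln, Cnn1 and Vcl of the second, although several genes respond to both.

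The promoter sequences are shown to place these names on letters of the genome. RefSeq windows (GRCm38.p6, from 250 bases before to 50 bases after the start) were matched for 8 of the 10 genes; Ccn2 and Tagln were the other two. On both strands, the Tead core GGAATG was found in 6 of the 8 windows (Ccn1, Amotl2, Ankrd1, Tagln2, Acta2 and Vcl), against 14.7% of all 32851 windows. A CArG box, taken strictly as CC, 6 letters of A or T, and GG, was found in 2 of the 8 (Cnn2 and Vcl), against 1.63% of all windows. Boxes that depart from these letters were not counted. The Acta2 window, for example, holds ccctatatgg and ccttgtttgg, each with 1 letter that differs. The TATA box TATAAA was found in 1 window, that of Ccn1, against 13.6% of all windows, and the AP-1 site TGANTCA in 0 of the 8, against 7.81%. The motifs overlapped nowhere in these windows. A match is a description of the letters, and binding was not measured. The 250 bases before the start are printed for Ccn1 (chr3:145649986-145650235, minus strand) and Vcl (chr14:20929148-20929397, plus strand), the 2 genes for which none of these 250 bases lies in an exon annotated in GENCODE vM21, with the Tead core (CATTCC when read on the gene's strand in Ccn1), the TATA box and the CArG box in capitals.
Ccn1 promoter: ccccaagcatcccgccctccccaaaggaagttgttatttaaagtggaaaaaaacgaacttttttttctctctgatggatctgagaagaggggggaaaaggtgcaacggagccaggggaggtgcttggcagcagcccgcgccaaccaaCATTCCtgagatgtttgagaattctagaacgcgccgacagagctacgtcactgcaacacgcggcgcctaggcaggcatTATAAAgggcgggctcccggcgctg
Vcl promoter: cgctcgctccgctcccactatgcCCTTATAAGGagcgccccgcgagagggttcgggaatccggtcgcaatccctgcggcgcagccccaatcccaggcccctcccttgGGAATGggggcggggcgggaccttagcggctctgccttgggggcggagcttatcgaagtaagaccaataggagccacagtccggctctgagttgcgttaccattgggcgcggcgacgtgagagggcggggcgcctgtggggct

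For the other genes with a match that are described below, only the motif and 10 bases on either side are shown, in capitals the Tead core of Amotl2 (chr9:102717729-102717754, plus strand, first base of the motif at -65 from the start), the Tead cores of Ankrd1 (chr19:36120039-36120064 and chr19:36119952-36119977, minus strand, at -210 and -123), the Tead core of Acta2 (chr19:34255504-34255529, minus strand, at -146) and the CArG box of Cnn2 (chr10:79988534-79988563, plus strand, at -56). The 250 bases before the RefSeq start lay wholly in an annotated exon of Ankrd1, and 217 of them in one of Acta2, 136 in one of Amotl2 and 16 in one of Cnn2, since the GENCODE vM21 models of these genes begin further upstream. Cnn2 and Vcl held the same 10 letters of the CArG box, which read alike on both strands.
Amotl2 Tead core: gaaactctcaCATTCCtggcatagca
Ankrd1 distal Tead core: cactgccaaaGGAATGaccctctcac
Ankrd1 proximal Tead core: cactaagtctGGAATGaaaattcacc
Acta2 Tead core: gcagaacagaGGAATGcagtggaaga
Cnn2 CArG box: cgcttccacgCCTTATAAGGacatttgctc

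Over the whole course the list moved in 2 waves. The first was a pulse at 6 h: 6 of the 10 genes rose from 0 h to 6 h (Ccn1, Ccn2, Amotl2, Tagln, Cnn2 and Vcl) and 0 fell, where 11.8% of all genes tested rose and 14.5% fell (limma, Benjamini-Hochberg adjusted p < 0.0001, as for every call here). The median difference was 1.93 over the list and -0.05 over all genes. The list and the gene lists below were chosen with earlier results of these data known. The shares of all genes are therefore a background, not a test. From 6 h to 24 h the pulse was followed by a fall of 7 of the 10 genes, the same 6 and Tagln2, with 0 rising (background 5.76% lower and 5.64% higher). From 24 h to 48 h most of the list lay low and 2 genes, Tagln and Cnn1, rose, with 0 falling (5.27% higher and 3.7% lower). Tagln2 was lower in both replicates but was not called (limma adjusted p = 0.000213). The second wave was larger: from 48 h to 96 h 9 of the 10 genes rose, all but Vcl, and 0 fell (12.9% higher and 10.5% lower), and the median difference was 2.46 over the list and 0.03 over all genes. From 96 h to 108 h a further 5 calls were made, all upward (Ccn1, Ccn2, Amotl2, Cnn2 and Vcl; 3.85% higher and 3.13% lower). From 108 h to 120 h only Ccn1 passed the test, downward (2.39% higher and 1.73% lower). Against 0 h, 9 of the 10 genes were higher at 120 h and 0 lower (12.9% higher and 10.1% lower), with Tagln2 the exception, and the median difference was 4.46 over the list. All 10 genes changed over the course by the moderated F test, with adjusted p between 9.94e-27 (Ccn1) and 1.74e-11 (Ankrd1), but so did 74.6% of all genes.

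**Figure D1:**
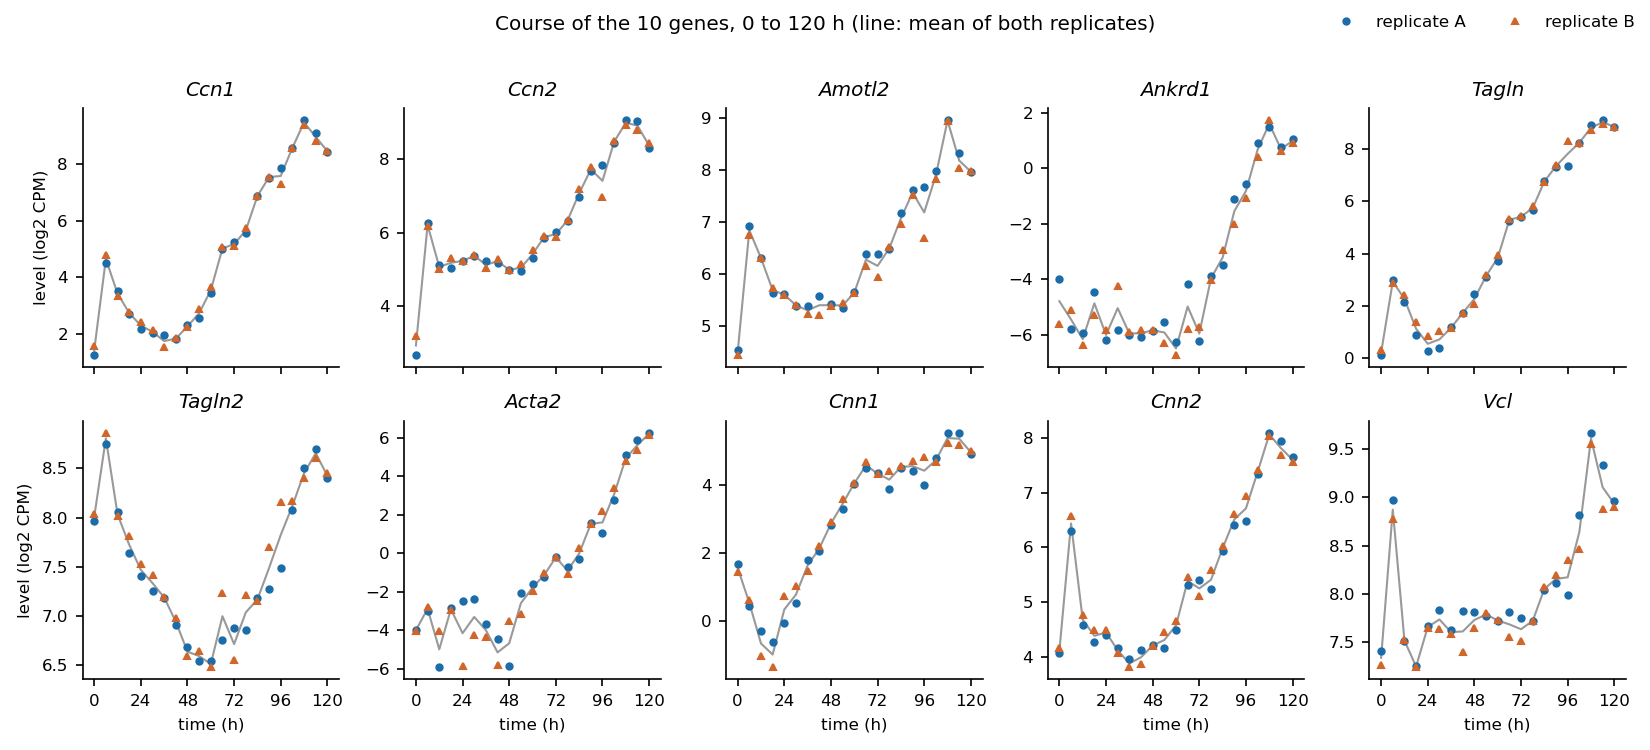
Level of each of the 10 genes in log2 CPM (vertical axis, scaled gene by gene) against time in h, with replicate A as circles, replicate B as triangles and the mean as a line. Ccn1, Ccn2, Amotl2, Tagln, Cnn2 and Vcl have a spike at 6 h and climb again after 60 h, Cnn1 dips to its lowest mean at 18 h, and Ankrd1 and Acta2 have scattered low points that rest on few reads before they climb.

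Ccn1 and Ccn2 encode secreted proteins of the extracellular matrix that bind integrins, and both were called in most steps. Ccn1 (ENSMUSG00000028195.3, chromosome 3, 145646976 to 145649981, minus strand) stood at 1.26 log2 CPM in replicate A and 1.57 in replicate B at 0 h, and at 4.52 and 4.77 at 6 h. It was therefore raised 9.39-fold within a single sampling step (log2 difference 3.23 ± 0.15 SE, limma adjusted p = 3.38e-15). By 24 h it was back at 2.17 and 2.41 (log2 difference from 6 h -2.35 ± 0.15, adjusted p = 2.09e-12), and at 48 h at 2.30 and 2.23. From there it climbed to 7.85 and 7.31 at 96 h, 39.7-fold over 48 h (log2 difference 5.31 ± 0.15, adjusted p = 1.75e-19), and to its highest level, 9.55 and 9.39, at 108 h. Both replicates were then lower at 120 h, at 8.43 and 8.47. That last fall of 1.02 ± 0.15 on the log2 scale (adjusted p = 1.83e-05) lost its call when any 1 of the 4 libraries of 108 h and 120 h was left out, with differences from -1.10 to -0.94 and adjusted p from 0.000254 to 0.00114.

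Ccn2 (ENSMUSG00000019997.5, chromosome 10, 24595442 to 24598683, plus strand) had a pulse of like size but kept part of it. Its level was 2.68 and 3.19 log2 CPM at 0 h, 6.26 and 6.18 at 6 h, and 5.23 and 5.24 at 24 h. The rise was 9.7-fold (log2 difference 3.28 ± 0.17, limma adjusted p = 2.45e-14), while the fall to 24 h was 1.97-fold (-0.98 ± 0.17, adjusted p = 5.71e-05). At 24 h Ccn2 was thus still 2.30 above its 0 h mean on the log2 scale, and Ccn1 0.88 above its own. The fall of Ccn2 to 24 h was not called when any 1 of the 4 libraries of 6 h and 24 h was left out, although the difference stayed between -1.02 and -0.94 (adjusted p from 0.000753 to 0.00171). From 12 h to 54 h every library of Ccn2 lay between 4.95 and 5.39. It was highest at 108 h, at 9.06 and 8.93, 2.99-fold over 96 h (1.58 ± 0.17, adjusted p = 9.47e-08). On the opposite strand of Ccn2 lies the noncoding gene Gm15270, which shares 1667 bases with it. The kit kept strand, but the strand setting of the read counting is not given in the sources used here.

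Amotl2, a scaffold protein of cell junctions that binds Yap1 and is itself a target of the pathway, followed the same course at a smaller range. Amotl2 (ENSMUSG00000032531.9, chromosome 9, 102716672 to 102733418, plus strand) stood at 4.56 and 4.45 log2 CPM at 0 h and 6.93 and 6.76 at 6 h, 5.08-fold higher (log2 difference 2.34 ± 0.18, limma adjusted p = 3.06e-11). It came down more slowly than Ccn2, with 6.31 and 6.32 at 12 h, 5.65 and 5.75 at 18 h, and 5.62 and 5.60 at 24 h. The difference from 6 h to 24 h was -1.24 ± 0.18 (adjusted p = 3.98e-06). Without 6 h replicate A, 24 h replicate A or 24 h replicate B in turn it was -1.15, -1.25 and -1.23 and was not called (adjusted p = 0.0003, 0.00014 and 0.000167). In the second wave Amotl2 reached 8.96 and 8.95 at 108 h, 3.4-fold over 96 h (1.77 ± 0.18, adjusted p = 2.8e-08). It had lower values, 7.96 and 7.99, at 120 h, a difference of -0.98 ± 0.18 that was not called (adjusted p = 0.000199).

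Ankrd1, a nuclear and sarcomeric ankyrin repeat protein best known from heart muscle, had no detectable pulse. Ankrd1 (ENSMUSG00000024803.8, chromosome 19, 36111961 to 36120099, minus strand) had 0 reads in 23 of the 42 libraries and 3 or fewer in 29. Up to 84 h it had at most 4 reads in any library, so that its log2 values there show the offset added before the logarithm rather than a level. At 0 h 1 read was counted over both libraries, at 48 h 0 reads, at 96 h 35 reads and at 108 h 186 reads. Against a floor of 3 reads over both 48 h libraries, Ankrd1 was at least 10.9-fold higher at 96 h and at least 56.7-fold higher at 108 h. At 120 h there were 102 reads against the 1 read at 0 h, a ratio of CPM of 93.9 with an exact 95% interval of 16.9 to 3710 that covers counting error only. The limma call from 48 h to 96 h (adjusted p = 7.96e-06) was lost without any 1 of the 4 libraries, with adjusted p from 0.000104 to 0.000403. The call from 0 h to 120 h was lost without 0 h replicate B (log2 difference 4.96, adjusted p = 0.000136). Even at its highest, 1.47 and 1.72 log2 CPM at 108 h, Ankrd1 was far below the other 9 genes.

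Among the genes of the contractile apparatus, Acta2, which encodes smooth muscle alpha-actin, was barely detected until 54 h and climbed to the end. Acta2 (ENSMUSG00000035783.8, chromosome 19, 34241090 to 34255590, minus strand) had at most 6 reads in any library up to 54 h, where its log2 values rest on the offset. At 0 h it had 2 reads over both libraries and at 120 h 3829 reads, a ratio of CPM of 1760 (exact 95% interval 488 to 14600, counting error only). Its climb had steps: -1.60 and -1.96 at 60 h, -0.22 and -0.20 at 72 h, 1.55 and 1.50 at 90 h, 2.74 and 3.39 at 102 h, 5.09 and 4.77 at 108 h, and 6.25 and 6.15 at 120 h. It was the only gene of the list to be highest at the last time point in both replicates. Acta2 rose from 48 h to 96 h (189 reads against 2, ratio 88 with interval 24.4 to 727, limma adjusted p = 2.14e-07). From 96 h to 108 h the log2 difference of 3.33 ± 0.79 was not called (adjusted p = 0.0019), whereas with voom weights it was 3.39 and passed (adjusted p = 4.38e-10). The actin genes share long stretches of coding sequence, so that reads may be split or lost between them.

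Tagln and Tagln2 are a pair of small actin-binding proteins, transgelin and transgelin-2. Tagln (ENSMUSG00000032085.4, chromosome 9, 45929619 to 45936058, minus strand) is the muscle form. It stood at 0.11 and 0.29 log2 CPM at 0 h, 2.97 and 2.88 at 6 h, 0.25 and 0.83 at 24 h, and 2.46 and 2.06 at 48 h. The pulse was 6.61-fold (log2 difference 2.73 ± 0.22, limma adjusted p = 8.49e-11), and after it Tagln was 1 of the 2 genes called upward by 48 h. The rise from 24 h to 48 h was 3.3-fold (1.72 ± 0.22, adjusted p = 7.51e-07), and its call was lost without 24 h replicate A (1.43, adjusted p = 0.000165), without 48 h replicate A (1.52, adjusted p = 0.000125) and with voom weights (1.75, adjusted p = 0.00069). By 96 h Tagln was at 7.34 and 8.31, 47.3-fold over 48 h (5.56 ± 0.22, adjusted p = 5.15e-17), and it was highest at 114 h, at 9.11 and 8.96. Over the full 120 h the difference was 8.66 ± 0.22 (404-fold, adjusted p = 1.08e-21). Tagln shares 108 bases with Pcsk7 and 3627 bases with the antisense gene Gm48529, both on the opposite strand.

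Tagln2 (ENSMUSG00000026547.9, chromosome 1, 172500047 to 172507380, plus strand), the widely expressed form, was the one gene of the list not called between 0 h and 120 h. Its level was 7.97 and 8.04 log2 CPM at 0 h and 8.40 and 8.45 at 120 h, a difference of 0.42 ± 0.16 (limma adjusted p = 0.0317). Between those points it had a wide trough, with its highest mean of 8.81 at 6 h and its lowest of 6.51 at 60 h. The 6 h difference of 0.80 ± 0.16 was not called (adjusted p = 0.000134), although both replicates were higher at 6 h. The fall to 24 h was called (-1.34 ± 0.16, adjusted p = 1.99e-07), and so was the rise from 48 h to 96 h (1.19 ± 0.16, adjusted p = 6.71e-07). Between these, from 24 h to 48 h, both replicates fell further, without a call (-0.83 ± 0.16, adjusted p = 0.000213). From 96 h to 108 h neither transgelin was called with all libraries, at 1.003 (adjusted p = 0.000975) for Tagln and 0.63 (adjusted p = 0.0036) for Tagln2. Without 96 h replicate B both were, at 1.49 (adjusted p = 1.3e-05) and 0.97 (adjusted p = 6.39e-05).

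Cnn1 and Cnn2 encode calponins, which bind actin filaments and restrain myosin. Cnn2 (ENSMUSG00000004665.4, chromosome 10, 79988584 to 79996062, plus strand), the form found in many cell types, went from 4.07 and 4.16 log2 CPM at 0 h to 6.30 and 6.58 at 6 h, 5.01-fold higher (log2 difference 2.33 ± 0.15, limma adjusted p = 6.33e-13). At 12 h it was already back at 4.59 and 4.77. It was lowest at 36 h, at 3.95 and 3.81, and highest at 108 h, at 8.10 and 8.04. Both later steps were called, 5.69-fold from 48 h to 96 h (2.51 ± 0.15, adjusted p = 1.33e-13) and 2.55-fold from 96 h to 108 h (1.35 ± 0.15, adjusted p = 6.8e-08).

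Cnn1 (ENSMUSG00000001349.4, chromosome 9, 22099216 to 22109630, plus strand), the smooth muscle form, stood at 1.70 and 1.44 log2 CPM at 0 h and at 0.45 and 0.63 at 6 h. Both replicates were lower at 6 h, but the difference of -1.03 ± 0.28 was not called (limma adjusted p = 0.00218). The lowest values, -0.61 and -1.36, were at 18 h. Cnn1 then climbed to 2.82 and 2.92 at 48 h (5.77-fold over 24 h, 2.53 ± 0.28, adjusted p = 4.14e-08) and 4.49 and 4.67 at 66 h. After 66 h it gained little, with 5.52 and 5.25 at 108 h and 4.93 and 5.01 at 120 h. The rise from 48 h to 96 h (1.56 ± 0.28, adjusted p = 2.74e-05) was not called without 48 h replicate A (1.51, adjusted p = 0.000816), 48 h replicate B (1.61, adjusted p = 0.000412) or 96 h replicate B (1.14, adjusted p = 0.00281).

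Vcl encodes vinculin, which ties actin filaments to focal adhesions and cell junctions. Its course had a short peak at 6 h and a second rise that was highest at 108 h. Vcl (ENSMUSG00000021823.9, chromosome 14, 20929398 to 21033676, plus strand) stood at 7.41 and 7.27 log2 CPM at 0 h, 8.97 and 8.78 at 6 h, and 7.51 and 7.52 at 12 h. The pulse was 2.9-fold (log2 difference 1.54 ± 0.14, limma adjusted p = 9.41e-10) and had gone by the next sample. From 12 h to 78 h every library lay between the 7.24 of 18 h replicate B and the 7.84 of 30 h replicate A. Vcl was also the only gene of the list not called from 48 h to 96 h (0.44 ± 0.14, adjusted p = 0.0102). It then went from 7.99 and 8.36 at 96 h through 8.82 and 8.46 at 102 h to 9.67 and 9.55 at 108 h, 2.71-fold over 96 h (1.44 ± 0.14, adjusted p = 1.7e-08). At 120 h it stood at 8.96 and 8.90, a difference from 108 h of -0.68 ± 0.14 that was not called (adjusted p = 0.000848). Vcl shares 2235 bases with Ap3m1 on the opposite strand.

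**Figure D2:**
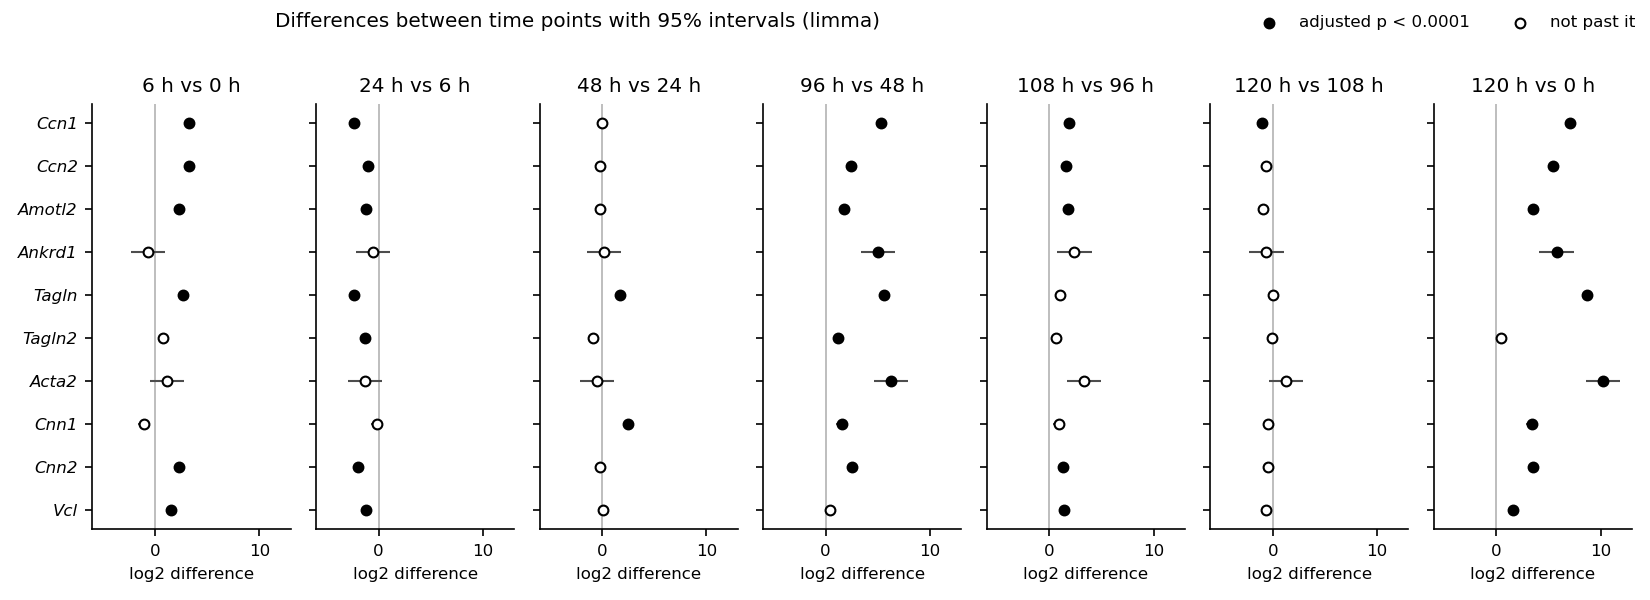
Log2 difference between 2 time points (horizontal axis, first minus second) for each of the 10 genes in 7 comparisons, with 95% intervals from limma as lines. Filled points passed adjusted p < 0.0001: 6 at 6 h vs 0 h, all to the right of 0, 7 at 24 h vs 6 h, all to the left, and 9 at 96 h vs 48 h and at 120 h vs 0 h, all to the right.

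The genes entered the second wave at different times. Taking it to begin at the first time point from which each replicate stayed more than 1 log2 unit above its own 48 h value to the end, it began at 60 h for Ccn1, Tagln and Cnn1, at 78 h for Ccn2, Amotl2 and Cnn2, at 102 h for Tagln2 and at 108 h for Vcl. This rule looks only after 48 h, and Tagln and Cnn1 had already risen from 24 h to 48 h. It also places genes of small range late. Vcl, for example, was at 8.04 and 8.07 at 84 h, against 7.81 and 7.65 at 48 h. Cnn2 passed the limit at 66 h (5.32 and 5.45) but not in replicate B at 72 h (5.105), against 4.22 and 4.19 at 48 h. Acta2 and Ankrd1 had 2 reads and 0 reads at 48 h, too few for such a start. Acta2 had 5 and 4 reads at 54 h and 12 and 13 at 60 h, and Ankrd1 had 1 read in each library at 78 h, 2 and 4 at 84 h, and 15 and 9 at 90 h. In both replicates Ccn1, Ccn2, Amotl2, Ankrd1, Cnn2 and Vcl were highest at 108 h, a time point at which 10.65% of all genes had their highest mean. Tagln was highest at 114 h and Acta2 at 120 h in both replicates, and Cnn1 at 114 h in replicate A and 108 h in replicate B. Tagln2 alone was highest at 6 h, as were 11.35% of all genes, and after 6 h it was highest at 114 h, at 8.70 and 8.61.

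Close relatives of the same family shifted against each other. Levels of different genes were set side by side as CPM per kb of exon. The length is that of all annotated exons of a gene merged, which can differ from that of the transcript expressed. Small gaps and crossings between genes depend on this length, and the SDs cover replicate spread only. On this scale Ccn1 stood 1.02 ± 0.14 log2 units below Ccn2 at 0 h and 2.90 ± 0.04 below at 42 h, the widest gap. From 84 h Ccn1 was the higher, with 0.98 ± 0.02 more at 108 h. Tagln went from 7.74 ± 0.08 below Tagln2 at 0 h to 0.50 ± 0.02 above it at 120 h, and crossed it between 84 h and 102 h. Cnn1 stayed below Cnn2 at all 21 time points. Its distance was 2.70 ± 0.25 at 0 h, widened to 6.06 ± 0.07 at 6 h as Cnn2 spiked, narrowed to 0.67 ± 0.09 at 60 h, and widened again to 2.79 ± 0.12 at 120 h.

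**Figure D3:**
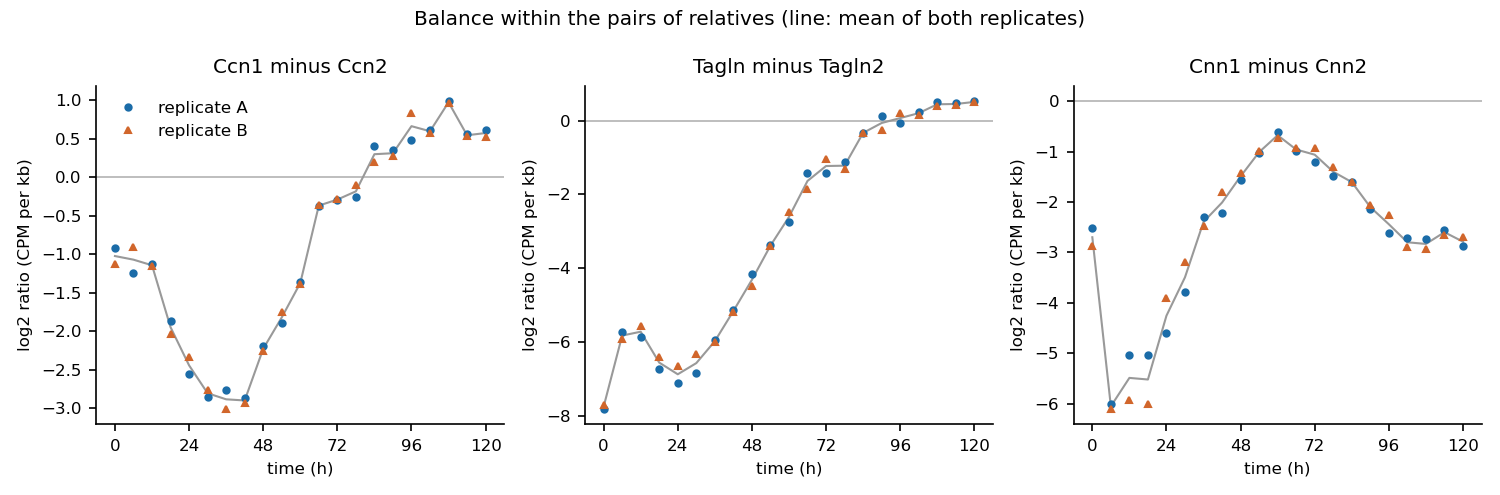
Log2 ratio of CPM per kb (vertical axis, first gene minus second) against time in h for 3 pairs of relatives, with replicate A as circles, replicate B as triangles, the mean as a line and equal levels at 0. The Ccn1 to Ccn2 ratio dips to -2.90 at 42 h and ends above 0, the Tagln to Tagln2 ratio climbs from -7.74 to 0.50, and the Cnn1 to Cnn2 ratio stays below 0 with a minimum of -6.06 at 6 h and a maximum of -0.67 at 60 h.

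The order of the whole list on this per-length scale turned over with time. At 0 h Tagln2 was highest at 6.95 log2 CPM per kb, followed by Vcl at 4.31, Cnn2 at 2.82, Amotl2 at 1.85, Ccn2 at 1.42, Ccn1 at 0.40, Cnn1 at 0.12 and Tagln at -0.79. Acta2 and Ankrd1, with 2 reads and 1 read over both libraries, were last and are not ordered here. Of these neighbours, Amotl2 and Ccn2, and Ccn1 and Cnn1, differed by less than the sum of their SDs. At 108 h Ccn1 led at 8.46, followed by Tagln at 7.83, Ccn2 at 7.48, Tagln2 at 7.39, Cnn2 at 6.77, Vcl at 6.58, Amotl2 at 6.31, Cnn1 at 3.94, Acta2 at 3.79 and Ankrd1 at 0.07. There, Ccn2 and Tagln2, and Cnn1 and Acta2, differed by less than the sum of their SDs. At 120 h Tagln was first at 7.87.

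Replicates lay furthest apart at 96 h. The median SD between duplicates over all genes was 0.107 log2 units, from 0.064 to 0.288 by time point, and 96 h was the widest. Against a median distance of 0.131 at the other time points, Ccn1 was 0.54 lower in 96 h replicate B than in replicate A. Ccn2 was 0.89 lower in B, Amotl2 0.97 lower and Ankrd1 0.52 lower. The other 6 genes were all higher in B, by 0.97 for Tagln, 0.68 for Tagln2, 1.15 for Acta2, 0.83 for Cnn1, 0.46 for Cnn2 and 0.37 for Vcl. The 4 genes lower in B are those named first as Yap1 readouts. This grouping was seen in 1 pair of libraries and was not tested. The gaps of Ankrd1, Acta2 and Vcl were within the largest seen at another time point, 1.63 at 66 h, 3.37 at 24 h and 0.454 at 114 h. Markers of other cell types also differed between the 96 h libraries. Replicates A and B had 1128 and 1804 CPM of the stem cell markers, 29.6 and 12.7 of the fibroblast, 102 and 98.6 of the smooth muscle, 12.1 and 21.6 of the cardiac, 27.4 and 40.4 of the endoderm and 8.62 and 16.3 of the endothelial markers. Their part in these gaps was not tested. With 90 h in place of 96 h, an alternative chosen after the data were seen, 8 genes rose from 48 h (without Ankrd1, 4.28, limma adjusted p = 0.000108) and 7 rose from there to 108 h, with Tagln (1.47, adjusted p = 4.27e-07) and Tagln2 (0.97, adjusted p = 2.49e-06) added. The shares of all genes called with 90 h are not given here.

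**Figure D4:**
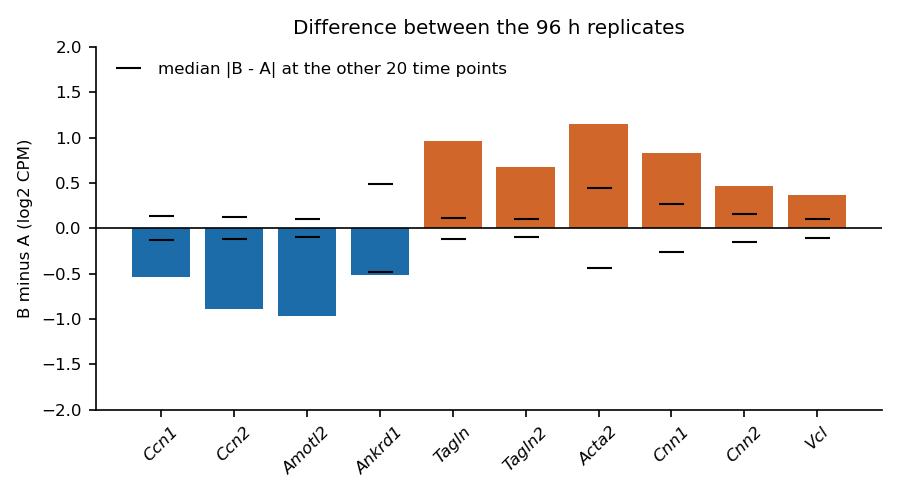
Replicate B minus replicate A at 96 h in log2 CPM (vertical axis) for the 10 genes as bars, with the median absolute difference at the other 20 time points drawn as short lines on both sides of 0. The bars of Ccn1, Ccn2, Amotl2 and Ankrd1 lie below 0, down to -0.97, and the other 6 lie above it, up to 1.15.

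Over the 21 time points, the courses of Ccn1, Ccn2, Amotl2, Cnn2 and Tagln were alike. As the lower of the Pearson r in replicates A and B, Ccn1 had 0.97 with Tagln, 0.96 with Cnn2 and 0.95 with both Ccn2 and Amotl2. The courses least like the others were those of Tagln2 and Cnn1, with -0.06 between them. Before 60 h for Acta2 and 90 h for Ankrd1 the points rest on few reads. These are descriptions over points that follow each other in time, with 2 libraries at each. Among the 10654 genes averaging 2 log2 CPM or more, the 3 most like Ccn1 were Endod1 (0.974), Ddr1 (0.972) and Tagln. Those most like Ccn2 were Thbs1 (0.972), Rhob (0.969) and Lpar6 (0.967), and those most like Amotl2 were Lats2 (0.966), Rhob (0.966) and Ccn2. For Tagln they were Ddr1 (0.985), Jun (0.979) and Igfbp3 (0.976), for Cnn1 Sdc2, Pdpn and Pls3 (0.97 or above) and for Cnn2 Csrp1, Endod1 and Specc1 (0.963 or above). For Acta2 they were Cald1, Serpinh1 and Dusp10, and for Ankrd1 Anxa3, Mapkapk2 and Efs. These names depended on the measure: with Spearman rho, 0 to 2 of the 3 names per gene were shared.

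The factors of the Hippo route did not all move one way. Yap1, the coactivator, stood between 7.37 and 8.23 log2 CPM on average at the 7 time points compared. It was not called from 0 h to 6 h (0.24 ± 0.07, limma adjusted p = 0.00441), fell by 0.46 from 48 h to 96 h (adjusted p = 4.46e-06) and rose by 0.47 from 96 h to 108 h (adjusted p = 9.74e-06). Wwtr1, its relative, was not called at 6 h (-0.15 ± 0.11, adjusted p = 0.26), fell to 24 h and to 48 h, and rose by 1.60 ± 0.11 from 48 h to 96 h (adjusted p = 3.44e-12). Of the Tead factors, Tead4 had a pulse, from 4.93 at 0 h to 7.23 at 6 h (2.30 ± 0.21, adjusted p = 5.97e-10) and back to 4.88 at 24 h (-2.35 ± 0.21, adjusted p = 8.51e-10), and it was not called from 48 h to 96 h (0.68 ± 0.21, adjusted p = 0.00706). Tead3 rose at 6 h (1.15 ± 0.19, adjusted p = 8.94e-06), whereas Tead2 fell (-0.78 ± 0.09, adjusted p = 1.46e-08) and Tead1 was not called (0.56 ± 0.17, adjusted p = 0.0074). From 48 h to 96 h Tead1 (1.32), Tead2 (0.61) and Tead3 (1.95) all rose. Among all 26 measured Hippo components, 10 rose and 2 fell at 6 h, 9 rose and 2 fell from 48 h to 96 h, and 8 rose and 0 fell from 96 h to 108 h, with medians of 0.58, 0.36 and 0.82. Of all genes, 11.8% rose and 14.5% fell at 6 h. From 48 h to 96 h 12.9% rose and 10.5% fell, and from 96 h to 108 h 3.85% and 3.13%. The kinase gene Lats2, itself a Yap1 target, rose in all 3 of these steps (1.83, 2.81 and 1.71).

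Other target genes of Yap1 and the Tead factors were not called in at least 8 of 16 cases at each of the shorter steps given here. Between 0 h and 120 h, 4 of the 16 were not called. Of the 16 measured, 7 rose and 1 fell at 6 h, 0 rose and 4 fell to 24 h, 5 rose and 1 fell from 48 h to 96 h, and 6 rose and 0 fell from 96 h to 108 h, against the shares of all genes given above. At 6 h the growth factor gene Tgfb2 rose by 3.28 ± 0.27 (limma adjusted p = 1.03e-10) and Nt5e, which encodes a nucleotidase of the cell surface, by 3.03 ± 0.24 (adjusted p = 4e-11), while the receptor gene Axl fell by 1.82. From 48 h to 96 h Igfbp3 rose by 3.36 and Nt5e by 3.22. From 96 h to 108 h the gene for tissue factor, F3, rose by 2.57 ± 0.12 (adjusted p = 2.41e-14). At 120 h 11 of the 16 were higher than at 0 h and 1 lower, with a median difference of 1.34.

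The gene for Srf itself rose at 6 h and at 108 h. Its mean was 5.23 log2 CPM at 0 h and 6.76 at 6 h (1.52 ± 0.15, limma adjusted p = 2.77e-09), 6.00 at 24 h (-0.76 ± 0.15 from 6 h, adjusted p = 0.000209, not called), 5.88 at 96 h and 7.25 at 108 h (1.36 ± 0.15, adjusted p = 9.61e-08), and 6.00 at 120 h (-1.24 ± 0.15, adjusted p = 7.98e-07). Its cofactor genes Mrtfa and Mrtfb were called in none of the 7 comparisons, and at 6 h their differences were -0.13 ± 0.17 (adjusted p = 0.539) and 0.10 ± 0.20 (adjusted p = 0.708). Of 21 other measured target genes of Srf and its cofactors, 12 rose and 0 fell at 6 h, 0 rose and 7 fell to 24 h, 14 rose and 0 fell from 48 h to 96 h, 9 rose and 0 fell from 96 h to 108 h, and 19 were higher and 0 lower at 120 h than at 0 h. Their medians were 1.10, -1.14, 1.70, 1.09 and 2.28. Of all genes, 11.8% rose and 14.5% fell at 6 h, and 5.64% and 5.76% from there to 24 h. The shares were 12.9% and 10.5% from 48 h to 96 h, and 3.85% and 3.13% from 96 h to 108 h. At 120 h 12.9% of all genes were higher and 10.1% lower than at 0 h. At 6 h Thbs1, which encodes thrombospondin-1 of the matrix, rose by 3.49 ± 0.36 (adjusted p = 5.81e-09), Tgfb1i1, an adaptor of focal adhesions, by 3.48 ± 0.41 (adjusted p = 5.1e-08) and Myl9, a myosin light chain, by 3.08 ± 0.25 (adjusted p = 6.4e-11). The largest fitted difference at 6 h was that of the cardiac actin gene Actc1 (adjusted p = 3.31e-05), which had 0 reads over both libraries at 0 h and 13 at 6 h. From 48 h to 96 h the largest were those of Acta1, the skeletal muscle actin (8 reads and 946 reads over both libraries, adjusted p = 1.33e-08) and Actc1 (2 reads and 268 reads, adjusted p = 1.47e-08), followed by Tgfb1i1 and Thbs1 (4.33 and 3.68). From 96 h to 108 h Thbs1 rose by 3.22 ± 0.36 (adjusted p = 1.18e-07), Fhl2 by 2.09 and Tpm1, a tropomyosin, by 1.49. Cytoplasmic beta-actin (Actb) had the pulse, at 10.14 and 12.52 on average (2.37 ± 0.13, adjusted p = 3.11e-14), but not the wave from 48 h to 96 h (0.05 ± 0.13, adjusted p = 0.733).

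Of the 16 proteins that neighbour vinculin in focal adhesions, the genes of 4 rose and 0 fell at 6 h, 6 rose and 1 fell from 48 h to 96 h and 5 rose and 0 fell from 96 h to 108 h, with medians of 0.44, 0.40 and 0.60. Of all genes, 11.8% rose and 14.5% fell at 6 h, 12.9% and 10.5% from 48 h to 96 h, and 3.85% and 3.13% to 108 h. Among 12 measured relatives of the listed genes, 5 rose and 2 fell at 6 h. At 120 h 8 of the 12 were higher and 0 lower than at 0 h, against 12.9% and 10.1% of all genes. Of these relatives, Actb, Actg1, Acta1, Actc1, Amot, Amotl1 and Ctnna1 are also on lists counted above. The largest fitted difference among the relatives at 6 h was that of Ccn4, a relative of Ccn1 and Ccn2, with 1 read over both libraries at 0 h and 43 at 6 h (limma adjusted p = 2.2e-09). The third calponin, Cnn3, was called only between 0 h and 120 h (0.57), and the neuronal transgelin, Tagln3, fell at 6 h (-1.74).

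The summed markers of other cell types also changed over the course. Of all genes, 12.9% were higher and 10.1% lower at 120 h than at 0 h. The 8 measured fibroblast markers of 10 listed summed to 24.8 and 28.5 CPM at 0 h, 13.6 and 12.5 at 6 h, 10.9 and 9.47 at 48 h, 29.6 and 12.7 at 96 h, and 117 and 106 at 120 h. At 120 h 6 of the 8 were higher than at 0 h and 1 lower, and Col3a1 and Dcn were at 0 reads at 0 h. The 4 measured smooth muscle markers beyond the list, of 7, summed to 109 and 105 CPM at 0 h, 150 and 144 at 6 h, and 74.2 and 67.4 at 48 h. They summed to 219 and 217 at 108 h and 157 and 144 at 120 h, and 1 of the 4 was higher at 120 h than at 0 h and 0 lower. Of these markers, Smtn stood at 5.66 log2 CPM on average at 0 h and 6.91 at 6 h, and Des at 5.755 and 4.55. Lmod1 and Synpo2 were far lower at both times. Smtn, Lmod1 and the cardiac marker Actc1 are also among the Srf target genes counted above. The 5 measured cardiac markers of 8 summed to 16.4 and 16.7 CPM at 0 h, 4.88 and 5.51 at 6 h, and 26.8 and 26.5 at 120 h, and 3 of the 5 were higher at 120 h than at 0 h and 1 lower. The 5 measured endoderm markers of 8 went from 6.84 and 7.57 CPM at 0 h to 42.5 and 43.8 at 120 h (3 higher and 0 lower), and the 3 measured endothelial markers of 5 from 95.8 and 92.6 to 21.8 and 20.3 (1 higher and 1 lower). Some of these sums rested largely on 1 gene at 0 h. Pecam1 stood at 6.54 log2 CPM on average at 0 h and 3.835 at 120 h, Tek at 0.008 and 0.616, and Kdr at -3.85 ± 2.43 and 2.37. Thy1 was the highest fibroblast marker at 0 h, at 4.37, followed by Col1a1 at 2.40. Among the cardiac markers it was Tnni3, at 3.53, followed by Myl7 at 1.82. The part of the markers in the course of the 10 genes was not tested.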

How the data were processed

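Per the labels and the study's methods, the authors purified RNA from duplicate cultures with Trizol, made stranded poly-A libraries, used Trim Galore for trimming, TopHat2 for alignment to mm10 and HTSeq for counting over genes, and normalised for library size with edgeR. The deposited values are log2 CPM with an offset of 0.5 reads, as the authors' voom transformation gives them, for genes the authors kept after a filter on low counts, which all 10 genes passed. The whole reads were recovered from these log2 values (largest deviation 2.91e-08 reads). The duplicates differed beyond sampling noise at every time point (chi-square per degree of freedom at least 7.35).

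Gene symbols came from GENCODE vM21 (GRCm38), which matched 14177 of the 14296 identifiers. A linear model with 1 mean per time point was fitted to all 14296 genes in 42 libraries with limma 3.58.1 (R 4.3.3), with moderated tests and a mean-variance trend. The Benjamini-Hochberg adjustment ran over all genes, separately in each of 7 comparisons, and calls were made at 0.0001. SE is that of the difference. The test was checked on simulated data. A value of 3 reads was the floor for folds against groups at 0, and intervals on reads are exact Poisson intervals at 95%. The replicate letter was tested as a pairing over 210 pairs of libraries with the same letter. The mean correlation of their deviations was 0.08, with a range from -0.474 to 0.598, and 47.1% exceeded 0.1, so the fit has no block. Alternatives were the replicate block, voom weights, an offset of 1 CPM, a filter on low values, median centring, a threshold of 0.05, adjustment over all comparisons, each library left out, and 90 h in place of 96 h.

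The 10 genes and the gene lists were chosen with earlier results of these data known. All 10 were described, and the rule for the lists was to name the factors and the genes past the threshold with the largest change (at most 4 per list and comparison), not all of which are given; Cnn3, Tagln3 and Axl were chosen after their values were seen. Genes most like a listed gene had the highest lower Pearson r of both replicates; those of Vcl and Tagln2 are not reported here. The list genes Foxf2, Rbms3, Fat4, Myocd, Actg2, Ccn5, Ccn6, Ankrd2, Lum, Fap, Myh11, Tnnt2, Tnni1, Nkx2-5, Sox17, Afp, Ttr, Cdh5 and Tie1 were not analysed here.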

Additional observations from a re-analysis of the deposited data

How the results depend on the processing

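The 70 differences of the 10 genes (7 comparisons) were recomputed under the alternatives, which gave 826 values. Of these, 759 kept their direction and their side of the threshold, 23 lost a call, 32 gained one and 12 changed sign. None of the 39 called differences changed sign under any alternative run. The shares of all genes called under these alternatives are not given here, so the counts below have no background beside them. The count called from 24 h to 48 h, 2, was 1 with voom weights and 1 to 2 with single libraries left out. The count from 96 h to 108 h, 5, was 8 with voom weights, 7 with log2(CPM + 1), which added Ankrd1 and Acta2, and 10 at a threshold of 0.05. The count from 108 h to 120 h, 1, was 2 with the replicate block, with adjustment over all comparisons and with 90 h in place of 96 h. These added a fall of Amotl2 (-0.98). The count was also 2 with voom weights and with log2(CPM + 1), which instead added a rise of Acta2 (1.27 and 1.25). It was 5 at the threshold of 0.05 and 0 without any 1 of the 4 libraries. The cause was not tested. The replicate block took the count from 0 h to 6 h from 6 to 7, with a rise of Tagln2 added (limma adjusted p = 4.16e-05). It took that from 24 h to 48 h from 2 to 3, with a fall of Tagln2 added (limma adjusted p = 6.68e-05). The block changed no other count than those given. Tagln2 was also called in both steps with 90 h in place of 96 h (limma adjusted p = 1.05e-05 and 1.59e-05). The letters A and B share a label and were not treated as a pairing.

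Every difference that changed sign was one that was not called. Tagln2 from 108 h to 120 h was 0.010 after median centring and -0.079 to 0.023 with single libraries left out. With single libraries left out, the differences were -1.465 to 0.149 for Ankrd1 from 0 h to 6 h, -2.952 to 0.414 for Acta2 and -0.592 to 0.204 for Cnn1 from 6 h to 24 h. From 24 h to 48 h they were -0.147 to 0.096 for Ccn1, -0.001 to 0.334 for Ankrd1, -2.205 to 1.160 for Acta2 and -0.008 to 0.152 for Vcl, and from 108 h to 120 h -0.069 to 0.140 for Tagln. A filter at a mean of 0 log2 CPM removed Ankrd1 and Acta2, and all 8 of the others were called over the course without them. Depth is the limit for Acta2 before 60 h and for Ankrd1 before 90 h, since 3 reads corresponded to up to 0.316 CPM.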
